A study of Mus musculus with 6 samples.

Results

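The genes that mark T cells and natural killer (NK) cells were followed in RNA-seq of CD31 bead fractions from Lewis lung carcinoma (LLC) tumors. The set holds 10 genes picked by name for what they encode: Cd3d, Cd3e and Cd3g of the T cell receptor complex, the co-receptors Cd4 and Cd8a, the cytotoxic granule genes Prf1, Gzmb and Nkg7, the NK receptor gene Ncr1, and Foxp3 of regulatory T cells. They are 10 of 23473 RefSeq gene rows in the table. All 10 were among the 12320 rows tested, whose mean level reached 1 RPKM. RPKM is reads per kilobase of gene model, scaled to the total of the library over all deposited rows.

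Tumor endothelial cells (TECs) were collected from LLC tumors, which grow from a transplanted mouse lung carcinoma line, in 3 Ctrl and 3 NICeCA mice. All mice were C57BL/6, with an age of 8 weeks in the labels and the male sex in the study's methods, and bore a subcutaneous LLC tumor. NICeCA mice carry Cdh5-Cre ERT, a tamoxifen-inducible Cre driven in cells that express VE-cadherin, and the Notch1 intracellular domain (NIC) behind a floxed stop at Rosa26. In the study's methods the Cre was induced by tamoxifen injections that ended before the LLC cells were given. The labels give Ctrl mice as wild type and do not say which alleles or injections they shared with NICeCA mice. Cells of the digested tumors were selected with beads carrying an antibody to CD31, an endothelial antigen that many leukocytes also carry. The comparison asks how TEC fractions differ when Notch signaling is active in the endothelium. The methods speak of pairs of mice and do not mention pooling, and the p-values measure the spread between these libraries, which may be partly technical. RefSeq rows held 29818454 to 30769916 reads per Ctrl library and 27793301 to 29194187 per NICeCA library.

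The fractions held endothelial and leukocyte transcripts together. Pecam1, which encodes CD31, stood at 135, 47.5 and 82.6 RPKM in Ctrl 1, 2 and 3 and at 125, 154 and 142 RPKM in NICeCA 1, 2 and 3. Ptprc, which encodes the leukocyte antigen CD45, stood at 45.5, 27.8 and 76.2 RPKM in Ctrl and at 51.7, 59.1 and 53.7 RPKM in NICeCA. Ctrl 2 was thus the lowest library for both genes, and the groups overlapped for both. Notch1 reads did not separate the groups either, with 8.19 to 14.3 RPKM in Ctrl and 12.3 to 13.6 RPKM in NICeCA (log2 fold change 0.11, limma adjusted p = 0.71), and that row counts reads of the native gene and of the transgene together.

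T cells recognize antigen through a receptor whose signal is carried into the cell by the CD3 chains. CD4 and CD8 bind the presenting molecule beside the receptor and divide helper and regulatory cells from cytotoxic cells. Cytotoxic T cells and NK cells kill by releasing granules, in which perforin opens the way into the target cell and granzymes, a family of serine proteases, start its death. NK cells need no antigen receptor and sense their targets through receptors such as NKp46, while regulatory T cells restrain other T cells. A CD31 fraction is meant to hold endothelium, which is not known for these genes.

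Of the 10 genes, 2 were higher in NICeCA TEC fractions and 0 were lower, and both of those that rose encode granule contents. Prf1 and Gzmb rose by 0.92 and 0.70 on the log2(RPKM + 1) scale, whereas Cd3d, Cd3g, Cd4, Foxp3 and Ncr1 had differences from -0.03 to 0.24, and Cd3e, Nkg7 and Cd8a had lower means that did not pass the test. The share called, 2 of 10, stood against 13.6% of all tested rows called in either direction and 5.88% called higher. With so few genes, that count is near the background and is no result about the set as a whole. The median log2 fold change was 0.02 over the 10 genes and -0.05 over all tested rows, with 5 positive and 5 negative values among the genes. In 3 of the 10 genes the Ctrl and NICeCA libraries did not overlap, against 40.9% of all tested rows.

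**Figure D1:**
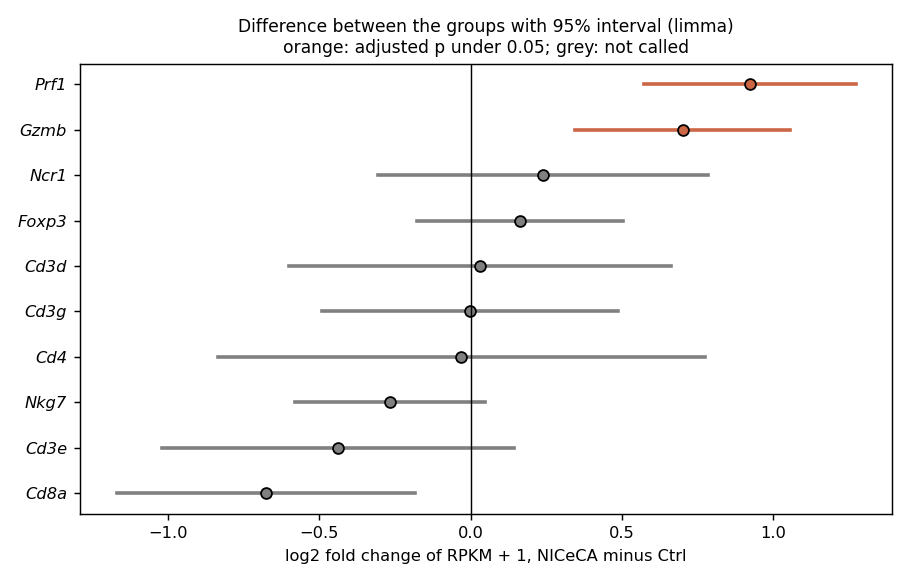
Log2 fold change of RPKM + 1 (x axis, NICeCA minus Ctrl) for each of the 10 genes (y axis), as points with 95% confidence intervals from limma over 3 Ctrl and 3 NICeCA libraries. Prf1 (0.92) and Gzmb (0.70) passed an adjusted p of 0.05 and are drawn in orange, the interval of Cd8a (-0.68) lies below 0 but did not pass after adjustment, and the other 7 intervals include 0.

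The promoters of Prf1 and Gzmb, the genes that rose together, and of Cd8a, whose NICeCA levels were all below the Ctrl levels, are shown for reference. They are RefSeq sequences of 300 bases on the coding strand, from 250 bases before to 50 bases after the annotated start, on GRCm38.p6. The capitals mark matches, on either strand, to 6 short motifs. RBPJ, the DNA-binding partner of the Notch intracellular domain, was searched as TGGGAA. RUNX factors, which act in the development of cytotoxic T cells, were searched as TGTGGT. The T-box family of T-bet and Eomes was searched as GGTGTGA. The core site of ETS factors was searched as AGGAAG and a lymphoid E-box as CAGCTG, and the last motif was the TATA box, searched as TATAAA.
Prf1, chr10:61297586-61297885, plus strand: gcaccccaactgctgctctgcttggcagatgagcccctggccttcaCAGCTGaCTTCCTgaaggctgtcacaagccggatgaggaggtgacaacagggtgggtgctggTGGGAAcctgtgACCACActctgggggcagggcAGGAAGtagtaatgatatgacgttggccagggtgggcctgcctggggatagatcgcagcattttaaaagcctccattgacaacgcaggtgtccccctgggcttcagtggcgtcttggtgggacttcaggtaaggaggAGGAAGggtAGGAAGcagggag
Gzmb, chr14:56262285-56262584, minus strand: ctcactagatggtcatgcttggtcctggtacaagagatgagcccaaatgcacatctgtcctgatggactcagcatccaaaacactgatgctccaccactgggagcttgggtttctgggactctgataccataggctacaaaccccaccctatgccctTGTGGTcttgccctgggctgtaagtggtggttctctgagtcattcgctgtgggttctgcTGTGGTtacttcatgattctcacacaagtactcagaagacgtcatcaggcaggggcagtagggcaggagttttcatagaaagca
Cd8a, chr6:71373177-71373476, plus strand: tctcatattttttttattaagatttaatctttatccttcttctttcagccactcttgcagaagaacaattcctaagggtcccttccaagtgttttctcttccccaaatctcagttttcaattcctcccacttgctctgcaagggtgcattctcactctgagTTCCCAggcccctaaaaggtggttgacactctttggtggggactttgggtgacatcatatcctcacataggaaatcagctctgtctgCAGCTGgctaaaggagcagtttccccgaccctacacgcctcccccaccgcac

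In these windows the Prf1 promoter held 7 matches, which do not overlap each other. The RBPJ letters began 142 bases and the reverse of the RUNX letters 130 bases before the start, the E-box lay 204 bases before it, and 4 matches were to ETS. The Gzmb window held 2 RUNX matches, which began 93 and 34 bases before the start, and it lies just outside the deposited Gzmb row. The Cd8a window held 1 reverse RBPJ match, 89 bases before the start, and 1 E-box, which began 2 bases before it. Among the 9 genes with a promoter in the table (Cd4 was not among them), the RBPJ letters occurred in Prf1, Cd8a, Cd3e, Cd3g and a Foxp3 window. Across 32851 promoters of the same length the letters occurred in 25.6% for RBPJ, 16.8% for RUNX, 35.4% for ETS and 16.3% for the E-box, so matches were common and are given only as a description of the sequence.

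Prf1 encodes perforin, the pore-forming protein of the cytotoxic granule (chromosome 10, 61297836 to 61304263, plus strand, GRCm38 positions). Its level was 4.58, 3.70 and 4.77 RPKM in Ctrl 1, 2 and 3 and 8.02, 11.0 and 8.52 RPKM in NICeCA 1, 2 and 3. The lowest NICeCA library lay above the highest Ctrl library, and these values rest on 303 to 382 reads in Ctrl and 601 to 799 reads in NICeCA. The mean was 4.35 ± 0.57 RPKM in Ctrl and 9.19 ± 1.61 RPKM in NICeCA (SD, n = 3 each), a ratio of 2.11. On the log2(RPKM + 1) scale, which understates changes of low genes, the difference was 0.92 (SE 0.15, 95% confidence interval 0.57 to 1.27, limma adjusted p = 0.019). The call was lost without NICeCA 1 (adjusted p = 0.064) and without NICeCA 2 (adjusted p = 0.089), with log2 fold changes of 1.01 and 0.80.

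Gzmb encodes granzyme B, a protease that perforin lets into the target cell and that is also known from mast cells (chromosome 14, 56258858 to 56262260, minus strand). It stood at 6.02, 6.76 and 9.20 RPKM in Ctrl and at 12.1, 12.5 and 12.6 RPKM in NICeCA. The NICeCA libraries lay close together and all above the Ctrl libraries, with 333 to 508 reads in Ctrl and 623 to 662 in NICeCA. The mean rose from 7.33 ± 1.66 to 12.4 ± 0.23 RPKM (SD, n = 3 each), a ratio of 1.69, and the log2 fold change was 0.70 (SE 0.15, 95% confidence interval 0.35 to 1.06, limma adjusted p = 0.034). This call was less stable than that of Prf1. The adjusted p was 0.056 without Ctrl 1, 0.078 without Ctrl 2, 0.12 without NICeCA 1, 0.14 without NICeCA 2, 0.056 without NICeCA 3 and 0.067 with no filter on low rows, while the log2 fold change stayed between 0.59 and 0.86 in every alternative run.

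Nkg7, a membrane protein of cytotoxic granules that T and NK cells both use, went the other way in its mean but did not pass the test (chromosome 7, 43437138 to 43438246, plus strand). Its level was 12.1, 15.6 and 13.9 RPKM in Ctrl and 10.4, 12.6 and 11.0 RPKM in NICeCA. The groups overlapped only through NICeCA 2, which lay above Ctrl 1. The log2 fold change was -0.27 (SE 0.14, 95% confidence interval -0.58 to 0.05, limma adjusted p = 0.20).

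**Figure D2:**
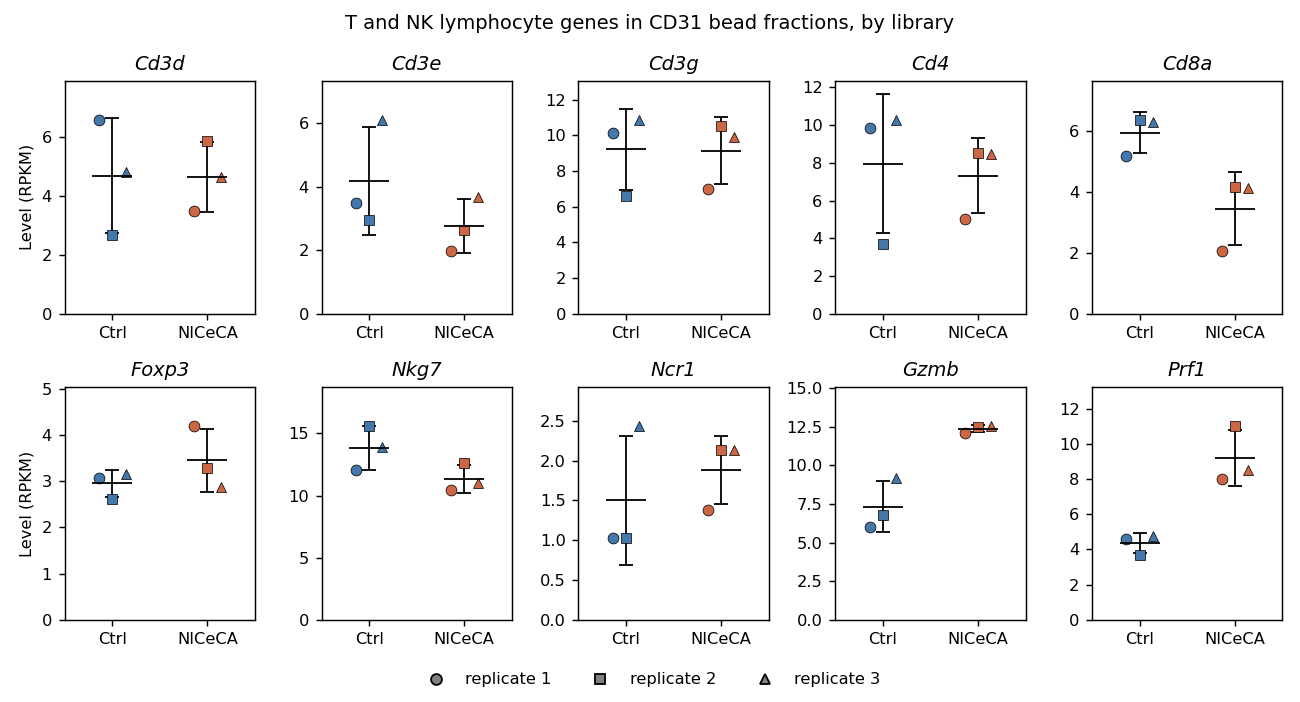
Level of each of the 10 genes (y axis, RPKM from 0, a separate scale per gene) in the 3 Ctrl (blue) and 3 NICeCA (orange) libraries, with the mean (long bar) and SD (short bars) and a symbol for each replicate number. The groups are fully apart in Prf1, Gzmb and Cd8a. Ctrl 2 (square) is the lowest Ctrl library in Cd3d, Cd3e, Cd3g, Cd4, Prf1, Foxp3 and, by a small margin, Ncr1.

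The CD3 genes lie side by side on chromosome 9 and encode the signaling chains that every T cell receptor needs. Cd3g (44969572 to 44980431, minus strand) was the most abundant of them, with 10.2, 6.60 and 10.9 RPKM in Ctrl and 6.99, 10.5 and 9.90 RPKM in NICeCA. Cd3d (44981786 to 44987052, plus strand) stood at 6.57, 2.66 and 4.80 RPKM in Ctrl and at 3.46, 5.84 and 4.62 RPKM in NICeCA. In both genes the ranges of the groups nearly coincided. Cd3g differed by -0.0012 on the log2 scale (95% confidence interval -0.49 to 0.49, limma adjusted p = 0.998). Cd3d differed by 0.03 (95% confidence interval -0.60 to 0.66, limma adjusted p = 0.95).

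Cd3e, the chain most used to identify T cells, had the larger shift (44998743 to 45009590, minus strand). Its level was 3.48, 2.94 and 6.11 RPKM in Ctrl and 1.98, 2.62 and 3.67 RPKM in NICeCA. Ctrl 3 was above the other 5 libraries, and the groups overlapped. The log2 fold change was -0.44 (SE 0.25, 95% confidence interval -1.02 to 0.14, limma adjusted p = 0.25). Without Ctrl 3 the log2 fold change was -0.18 (limma adjusted p = 0.55). In bulk libraries such as these, the number of T cells and the CD3 RNA in each T cell cannot be told apart.

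Cd4, the co-receptor of helper and regulatory T cells, had the widest range in RPKM among Ctrl libraries (chromosome 6, 124864693 to 124888209, minus strand). It stood at 9.86, 3.69 and 10.3 RPKM in Ctrl and at 5.01, 8.50 and 8.45 RPKM in NICeCA. Ctrl 2 was the lowest of all 6 libraries, and the NICeCA values fell between the Ctrl extremes. The log2 fold change was -0.03 (SE 0.35, 95% confidence interval -0.83 to 0.77, limma adjusted p = 0.96), and without Ctrl 2 it was -0.44 (adjusted p = 0.23).

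Cd8a, the alpha chain of the cytotoxic co-receptor, was lower in each NICeCA library than in any Ctrl library (chromosome 6, 71373427 to 71379171, plus strand). Its level was 5.16, 6.36 and 6.27 RPKM in Ctrl and 2.07, 4.14 and 4.13 RPKM in NICeCA, from 631 to 793 reads and 236 to 481 reads. Although the groups did not overlap, the log2 fold change of -0.68 (SE 0.21, 95% confidence interval -1.17 to -0.18) had a limma adjusted p of 0.069. It kept its sign and stayed above an adjusted p of 0.05 in the 12 alternatives that gave it a value, with a range from 0.063 to 0.15. Cd8b1, the beta chain that pairs with it on most cytotoxic T cells, stood at 5.46, 3.72 and 5.34 RPKM in Ctrl and at 2.81, 5.58 and 6.07 RPKM in NICeCA. The beta chain thus showed no such separation (log2 fold change -0.04, limma adjusted p = 0.92).

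As background, the alpha chain is also known from a class of dendritic cells that carries Clec9a, a receptor for dead cells. Clec9a, chosen after its values were seen, was lower in NICeCA, with 4.01, 4.33 and 4.65 RPKM in Ctrl and 1.46, 2.44 and 2.39 RPKM in NICeCA (log2 fold change -0.80, SE 0.16, limma adjusted p = 0.029). That call was lost without Ctrl 2 (adjusted p = 0.063), without NICeCA 1 (0.098) and without NICeCA 2 (0.096). Most of the dendritic cell list did not go that way, since 7 of its 9 tested genes had positive values and 2 negative ones, with a median log2 fold change of 0.19. Clec9a was the 1 gene of the list called lower and 0 were called higher, and the summed level of the list was 153 to 201 RPKM in Ctrl and 197 to 227 RPKM in NICeCA, with Bst2 the most abundant. The part of these cells in the Cd8a values was not tested.

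Foxp3, the transcription factor of regulatory T cells, did not differ beyond the spread (X chromosome, 7579676 to 7595243, plus strand). Its level was 3.08, 2.61 and 3.16 RPKM in Ctrl and 4.19, 3.29 and 2.86 RPKM in NICeCA, with overlapping groups. The log2 fold change was 0.16 (SE 0.15, 95% confidence interval -0.18 to 0.50, limma adjusted p = 0.46). The row shares 1435 bases with Ccdc22 on the opposite strand, which had 9.02 to 13.5 RPKM, and 1341 bases with 4930524L23Rik on its own strand, so reads of these genes cannot be told apart from those of Foxp3 where they overlap.

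Ncr1, which encodes the activating NK receptor NKp46, was the least abundant of the 10 genes (chromosome 7, 4337724 to 4345164, plus strand). It stood at 1.03, 1.03 and 2.44 RPKM in Ctrl and at 1.39, 2.13 and 2.13 RPKM in NICeCA, on 59 to 139 reads per library. Ctrl 3 was the highest of all libraries and the groups overlapped. The log2 fold change of 0.24 (SE 0.24, 95% confidence interval -0.30 to 0.79) had a limma adjusted p of 0.49.

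Levels in RPKM are per length and can be ordered between genes. In Ctrl the order of mean levels was Nkg7, Cd3g, Cd4, Gzmb, Cd8a, Cd3d, Prf1, Cd3e, Foxp3 and Ncr1. The first step, from Nkg7 to Cd3g, and the last, from Foxp3 to Ncr1, were the neighbors whose Ctrl libraries did not overlap. In NICeCA the order was Gzmb, Nkg7, Prf1, Cd3g, Cd4, Cd3d, Foxp3, Cd8a, Cd3e and Ncr1, and each gene overlapped the next in its range over the libraries. Gzmb moved from rank 4 to rank 1 and Prf1 from rank 7 to rank 3, while Cd8a moved from rank 5 to rank 8.

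Since the CD3 genes varied with the library, the granule genes were also set against them within each library. The ratio of Prf1 to the sum of Cd3d, Cd3e and Cd3g was 0.226, 0.304 and 0.219 in Ctrl and 0.645, 0.580 and 0.469 in NICeCA. Each NICeCA ratio was above each Ctrl ratio, and the mean log2 difference was 1.18. The ratio of Gzmb to the CD3 sum was 0.298, 0.554 and 0.422 in Ctrl and 0.974, 0.656 and 0.690 in NICeCA, again with no overlap, and differed by 0.89 on the log2 scale. Both had a two-sided exact permutation p of 0.1, the smallest that 3 against 3 libraries can give, and 0.15 after adjustment over the 6 ratios computed. These ratios, other than that of the CD3 sum to Ptprc, were chosen after the values had been seen. Prf1 and Gzmb alone already separated the groups, so the p-values of their ratios add no separate support.

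Set against Ptprc, the size of the differences moved when single libraries were left out, while their sign did not. Prf1 over Ptprc was 0.10, 0.133 and 0.0626 in Ctrl and 0.155, 0.186 and 0.159 in NICeCA (log2 difference 0.82, exact permutation p = 0.1). Each NICeCA ratio was above each Ctrl ratio. The log2 difference was 0.86 without Ctrl 1, 1.07 without Ctrl 2 and 0.52 without Ctrl 3. Gzmb over Ptprc was 0.132, 0.243 and 0.121 in Ctrl and 0.234, 0.211 and 0.234 in NICeCA, and Ctrl 2 was the highest of all 6 (log2 difference 0.52, exact permutation p = 0.4). Without Ctrl 2 the log2 difference was 0.84 with no overlap (exact permutation p = 0.1), and without Ctrl 3 it was 0.33. The CD3 sum over Ptprc, a measure of T cell RNA among leukocyte RNA, was 0.444, 0.439 and 0.286 in Ctrl and 0.241, 0.322 and 0.338 in NICeCA. It overlapped between the groups only through Ctrl 3 (log2 difference -0.36, exact permutation p = 0.3). Without Ctrl 3 the log2 difference was -0.57 (exact permutation p = 0.1), and without NICeCA 1 it was -0.21 (exact permutation p = 0.4). Cd8a over Cd8b1 was 0.945, 1.71 and 1.17 in Ctrl and 0.736, 0.743 and 0.680 in NICeCA, with each NICeCA library below each Ctrl library (log2 difference -0.78, exact permutation p = 0.1).

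**Figure D3:**
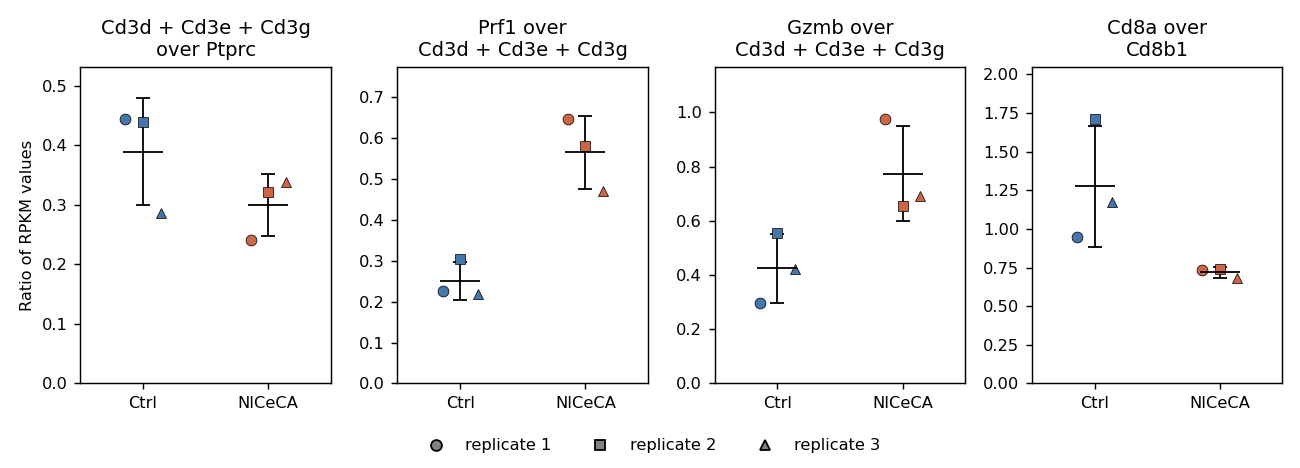
Ratios of RPKM values (y axis, from 0) of the CD3 sum over Ptprc, Prf1 and Gzmb over the CD3 sum, and Cd8a over Cd8b1 in the 3 Ctrl (blue) and 3 NICeCA (orange) libraries, with the mean and SD. Both granule genes lie higher per CD3 in all 3 NICeCA libraries (Prf1 0.469 to 0.645 against 0.219 to 0.304), and the CD3 sum over Ptprc overlaps. The ratios other than the CD3 sum over Ptprc were chosen after the values had been seen.

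Gzmb ends a cluster of serine protease genes on chromosome 14 (55941451 to 56262260), which holds 16 rows, 7 of them granzymes, with the mast cell proteases at the other end. Gzmc, its neighbor and a granzyme of activated killer cells, rose from 10.4, 2.53 and 5.85 RPKM in Ctrl to 22.1, 26.2 and 31.2 RPKM in NICeCA (log2 fold change 2.07, SE 0.38, limma adjusted p = 0.023). Without NICeCA 1 the adjusted p was 0.086, and without NICeCA 2 it was 0.096. Gzmd, the next gene named here, stood at 15.7, 0.429 and 1.64 RPKM in Ctrl and at 20.5, 35.1 and 15.4 RPKM in NICeCA. Here Ctrl 1 reached the NICeCA levels while Ctrl 2 and Ctrl 3 were far below, and Gzme, Gzmf and Gzmg had the same order of libraries within Ctrl. The log2 fold changes of Gzmd, Gzme, Gzmf and Gzmg were 2.55, 2.04, 2.53 and 2.60, with limma adjusted p of 0.068, 0.074, 0.085 and 0.091. Without Ctrl 1 these were 3.59, 2.90, 3.65 and 3.76, and all 4 passed (adjusted p from 0.020 to 0.025).

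Ctrl 1 also stood above the other Ctrl libraries in Cma1, Mcpt2 and Mcpt4 of the cluster, while Mcpt8, another protease of its mast cell end, was highest in Ctrl 3 among Ctrl. Cma1, a chymase, was at 47.0, 6.42 and 8.27 RPKM in Ctrl and at 28.2, 20.2 and 24.5 RPKM in NICeCA, and Mcpt4, another chymase, was at 32.3, 4.74 and 4.71 RPKM in Ctrl and at 12.0, 12.0 and 11.3 RPKM in NICeCA. Gzmb did not share that order, since Ctrl 1 was the lowest of the 6 libraries for it. Of 9 mast cell and basophil genes, 8 were tested and 0 were called by limma, although all 8 log2 fold changes were positive, with a median of 0.66. Their summed level was 34.1 to 173 RPKM in Ctrl and 95.4 to 111 RPKM in NICeCA. The part of mast cells in the granzyme values was not tested.

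**Figure D4:**
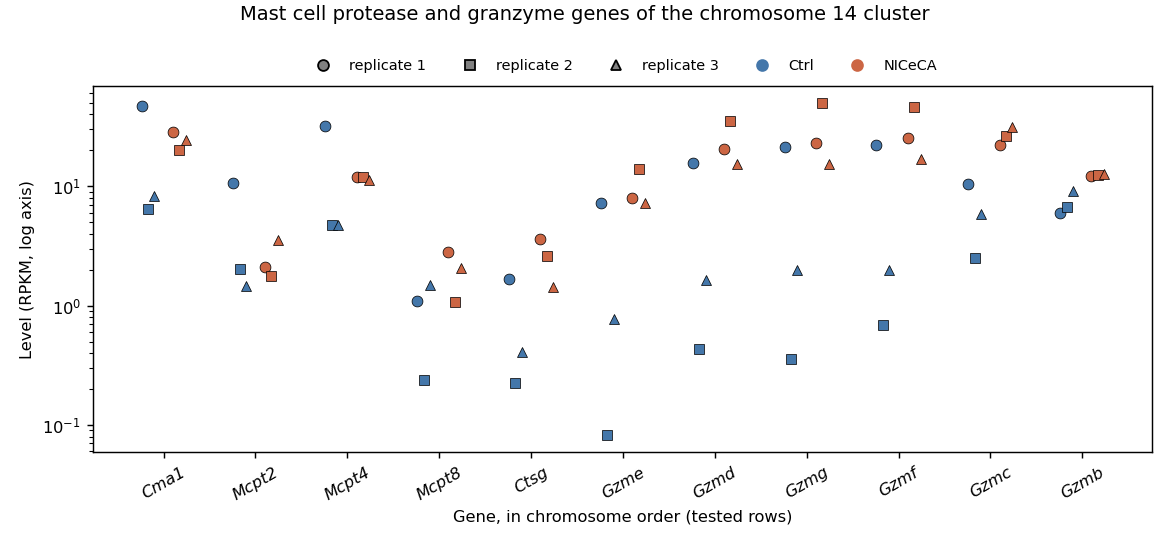
Level (y axis, RPKM, log axis) of the tested granzyme and mast cell protease genes of the chromosome 14 cluster, in chromosome order (x axis), in the 3 Ctrl (blue) and 3 NICeCA (orange) libraries. Ctrl 1 (blue circle) is above the other Ctrl libraries from Cma1 to Mcpt4 and from Ctsg to Gzmc, while Gzme, Gzmc and Gzmb have all 3 NICeCA libraries above all Ctrl libraries.

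The granzymes of the cluster resemble each other, which bears on how reads were shared among them. In the reference transcripts (GENCODE vM21), Gzmd and Gzme were 94.8% identical over their aligned bases, and pairs among Gzmd, Gzme, Gzmf and Gzmg were 86.4% to 94.8% identical. Of the windows of 50 bases, 21.5% of those in Gzmd, 19.1% in Gzme, 15.2% in Gzmg and 7.36% in Gzmf also occurred in another of the 6 granzymes compared. These windows are shorter than the reads given in the study's methods, so the percentages are not shares of reads. The split of reads among these 4 genes is uncertain and was not tested. Gzmb was 76.2% identical to Gzmc and shared 0 of its 1387 windows, and in Gzmc the share was 4.14%. The Gzmb and Gzmc levels therefore rest on sequence that is nearly all their own among these granzymes.

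Around the 10 genes, 9 lists of T and NK cell genes held 114 further genes, of which 110 were in the table and 91 were tested. Of these 91, 6 were called higher and 0 lower, or 6.59%, with a median log2 fold change of 0.06, 52 positive and 39 negative values. That share stood against 13.6% of all tested rows called and 5.88% called higher, so it is near the background and is no result about these lists. The 6 genes were Gzmc, Tnfrsf9, Id2, Itgb7, Ccl3 and Ccl4. In the 7 measured genes of the T cell receptor complex, 0 were called by limma and 6 had negative values, with a median of -0.04. Over all 12320 tested rows 6811 values were negative and the median was -0.05, so the list median is near the background. Only 2 of these 7, Cd247 (log2 fold change -0.08) and Cd8b1 (-0.04), are not among the 10 genes. Trac, Trbc1, Trbc2 and Trdc of that list had no row. Of 21 T cell signaling genes 0 were called (median -0.10). Fyn and Lcp2, a kinase and an adaptor of that pathway and the most abundant of the list, had log2 fold changes of -0.18 and 0.21.

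The cytotoxic effector list had the highest median of the 9 lists, with Gzmd, Gzme, Gzmf and Gzmg counted as separate genes. The split of reads among these similar genes is uncertain, and a median without them was not computed, so the rank may rest on them. Of its 16 tested genes 3 were called higher and 0 lower, where 5.88% of all tested rows were called higher, and 2 of the 3 were Prf1 and Gzmb themselves. In the list 12 values were positive, and the median was 0.54. Over the 13 tested genes that are not among the 10, only Gzmc was called and the median was 0.46. The summed level of the list was 75.4 to 151 RPKM in Ctrl and 172 to 272 RPKM in NICeCA, of which Gzmd, Gzme, Gzmf and Gzmg made a varying part. Gzma, a granzyme outside the cluster, stood at 4.90, 4.60 and 10.0 RPKM in Ctrl and at 14.8, 9.19 and 7.22 RPKM in NICeCA and did not pass (log2 fold change 0.62, limma adjusted p = 0.20). In the NK receptor list 0 of 10 tested genes were called (median 0.07), with Il2rb, a cytokine receptor chain, at -0.07 and Il18rap at -0.23.

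Tnfrsf9, the costimulatory receptor 4-1BB of activated T and NK cells, which other activated cells also make, was the 1 called gene of 11 tested in the regulatory T cell list. It rose from 13.0, 9.80 and 26.1 RPKM in Ctrl to 69.9, 82.1 and 83.2 RPKM in NICeCA (log2 fold change 2.31, SE 0.31, limma adjusted p = 0.011), and its adjusted p was 0.057 without NICeCA 2. The list median was 0.06, with 7 positive and 4 negative values. None of 8 checkpoint receptor genes was called by limma, and the most abundant, Havcr2 and Ctla4, had log2 fold changes of 0.54 and 0.36. Their intervals, -0.13 to 1.21 and -0.53 to 1.26, span 0.

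Id2, a transcriptional regulator that NK cells and cytotoxic T cells need and that many other cells express, was the 1 called gene among 9 tested T and NK transcription factors. Its level rose from 28.3, 26.1 and 64.7 RPKM in Ctrl to 127, 129 and 113 RPKM in NICeCA (log2 fold change 1.73, limma adjusted p = 0.023). Leaving out Ctrl 2, NICeCA 1 or NICeCA 2 gave adjusted p of 0.0501, 0.10 and 0.099. Itgb7, an integrin chain of lymphocyte homing, rose from 37.1, 30.2 and 41.9 RPKM to 57.7, 55.5 and 55.5 RPKM and was the 1 called gene of 11 homing receptors (log2 fold change 0.63, limma adjusted p = 0.036). Only the fit without Ctrl 3 kept that call among those that left out 1 library, and the others gave adjusted p of 0.056 without Ctrl 1, 0.079 without Ctrl 2, 0.13 without NICeCA 1, 0.14 without NICeCA 2 and 0.058 without NICeCA 3. It was also lost with no filter (0.061) and with quantile normalization (0.087), where the log2 fold change was 0.41.

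Ccl3 and Ccl4, chemokines that cytotoxic lymphocytes and myeloid cells both release, were the called genes of the chemokine list, and Ccl3 had the largest log2 fold change of all called genes of the 9 lists. Ccl3 rose from 33.2, 32.1 and 72.7 RPKM in Ctrl to 177, 276 and 309 RPKM in NICeCA (log2 fold change 2.51, limma adjusted p = 0.011). Ccl4 went from 26.2, 31.4 and 63.3 RPKM to 125, 197 and 186 RPKM (log2 fold change 2.13, limma adjusted p = 0.017). The rest of the 11 tested chemokine genes did not pass, and Ccl19 and Ccl21a were listed at 0 in every library. Both calls were lost without NICeCA 2 (limma adjusted p = 0.058 for Ccl3 and 0.076 for Ccl4), a fit that called 18 rows in all. The log2 fold changes there were 2.43 for Ccl3 and 2.00 for Ccl4.

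**Figure D5:**
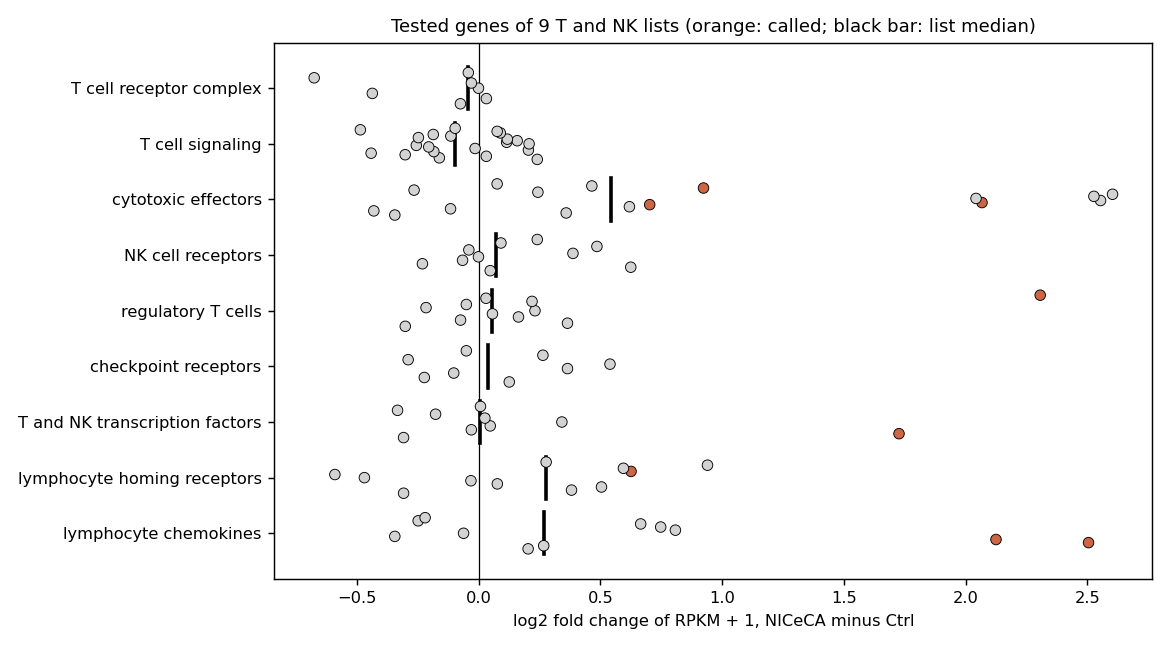
Log2 fold change of RPKM + 1 (x axis, NICeCA minus Ctrl) of each tested gene in 9 lists of T and NK cell genes (y axis), with called genes in orange and the list median as a black bar. The receptor and signaling lists center near 0 (medians -0.04 and -0.10), and the cytotoxic effector list has the highest median (0.54). That median counts the similar genes Gzmd, Gzme, Gzmf and Gzmg separately.

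The genes whose pattern over the 6 libraries came closest to the mean of the CD3 genes were sought among all other tested rows. Distance was measured as the Euclidean distance of centered log2(RPKM + 1) values, whose median over 12310 rows was 0.885. The 5 nearest were Themis, a thymocyte selection gene (0.118), A930024E05Rik (0.142), Fasl, the death ligand of cytotoxic cells (0.152), Sidt1 (0.184) and Skap1, an adaptor of T cell adhesion (0.190). Like the CD3 genes, these 5 had Ctrl 2 as their lowest Ctrl library, which follows from how they were chosen. Fasl stood at 3.01, 1.83 and 3.33 RPKM in Ctrl and 1.81, 2.90 and 2.51 RPKM in NICeCA (log2 fold change -0.12).

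Markers of other cells changed alongside the granule genes. Of 8 tested neutrophil genes 7 were called higher, against 5.88% of all tested rows called higher and 13.6% called in either direction. The neutrophil genes summed to 118 to 274 RPKM in Ctrl and 605 to 1677 RPKM in NICeCA, with S100a9 the most abundant. The 12 macrophage genes summed to 5017 to 10725 RPKM in Ctrl and 3424 to 6778 RPKM in NICeCA, led by Apoe, with 2 called higher, and the 10 pan-leukocyte genes summed to 710 to 1127 and 1052 to 1271 RPKM, led by Coro1a, with 1 called higher. The 20 endothelial genes summed to 371 to 913 RPKM in Ctrl and 818 to 1020 RPKM in NICeCA, with 3 called higher and Cd93 the most abundant. All 20 endothelial log2 fold changes were positive (median 0.66), as were all 10 of the pan-leukocyte genes (median 0.27). Macrophage genes had 5 positive and 7 negative values (median -0.15), and fibroblast genes had 3 and 4 (median -0.82). B cell genes, led by Cd79b, summed to 8.54 to 21.7 RPKM in Ctrl and 12.3 to 26.4 RPKM in NICeCA, with 0 of 5 called by limma. Pericyte genes, led by Rgs5, summed to 32.4 to 46.0 against 62.3 to 113 RPKM, with 2 of 7 called higher. Fibroblast genes, led by Col3a1, summed to 324 to 561 against 160 to 322 RPKM, with 3 of 7 called lower and 1 higher. Tumor epithelium genes, led by Cdh1, summed to 6.86 to 12.6 against 6.50 to 8.83 RPKM, with 1 of 2 called lower and 0 higher. None of these lists had a measured marker at 0 in every library. The part of these cells in the Prf1, Gzmb, Ccl3, Ccl4, Id2, Itgb7 and Tnfrsf9 values was not tested.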

How the data were processed

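RNA-seq was run on CD31 bead fractions of LLC tumors, 3 Ctrl and 3 NICeCA libraries, with ribosomal RNA depleted. The authors deposited RPKM values for 56826 rows, 23473 RefSeq genes and 33353 FANTOM3 models. FANTOM3 rows were not used. The total behind the RPKM values of Ctrl 1, 39050402 reads, nearly equaled the sum over RefSeq and FANTOM3 rows, 39050405 reads. RefSeq rows held 29818454 of these. The submitters' processing notes name TopHat2 and mm9, yet the positions are those of GRCm38. No source used here names the counting tool or its use of strand. RPKM times gene length gave whole reads (100.0% of values under 1000 reads, within 0.05), so depth is known.

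Samples were grouped by their titles. Rows with a mean of at least 1 RPKM were tested as log2(RPKM + 1) with limma 3.58.1 in R 4.3.3 (mean-variance trend, two-sided, Benjamini-Hochberg over 12320 rows, adjusted p under 0.05). Ratios of RPKM values within a library had an exact permutation test over 20 assignments. The procedure was tested on simulated data. The genes and lists were chosen with earlier results of these data known, and the lists were written from general knowledge. In each T and NK list the text names the called genes, or else the 2 most abundant, and in each list of other cells the most abundant gene. Gzmd, Gzme, Gzmf, Gzmg, the mast cell proteases, Gzma, Cd8b1 and Clec9a were named after their values were seen. Alternatives were another pseudocount (0.1), other filters (none, 5 RPKM), a trimmed mean scaling, quantile normalization, voom on the recovered reads, a replicate block and leaving out each library. Promoters are from RefSeq, and transcripts were compared with Biopython 1.88.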

Additional observations from a re-analysis of the deposited data

How the results depend on the processing

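The log2 fold changes of Prf1, Gzmb and Cd8a kept their sign under every alternative run. Of the 10 genes, 2 were called, against 1 with no filter (Prf1 kept, Gzmb lost), 1 with a replicate block (Gzmb lost, adjusted p = 0.056, and of the list genes Itgb7, 0.076) and 0 to 2 when a library was left out. A filter of 5 RPKM left Cd3g, Cd4, Nkg7, Gzmb and Prf1, so the other 5 genes have no value there. Over all rows, 1671 were called, against 365 with no filter, 536 with the replicate block, 771 with quantile normalization and 18 (without NICeCA 2) to 1655 (without Ctrl 3) when a library was left out. Of the further T and NK list genes 6 were called, against 3 with no filter (Gzmc, Id2 and Itgb7 lost, adjusted p = 0.056, 0.054 and 0.061, as was Clec9a, 0.068) and 0 (without NICeCA 2) to 9. The cause of these shifts was not tested.

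Deviations from the group mean correlated at 0.12, -0.34 and -0.18 between the Ctrl and NICeCA libraries of the same replicate number. With no reference to set them against, these values cannot decide whether the libraries were paired. The main comparison called 725 rows higher and 946 lower, against 986 and 712 with the trimmed mean scaling, 446 and 325 with quantile normalization and 960 and 794 with voom, while the median log2 fold change moved from -0.05 to at most 0.01.

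Values near 0 changed sign. Under trimmed mean scaling, quantile normalization and voom, Cd3g came to 0.060, 0.082 and 0.071, Cd4 to 0.028, 0.081 and 0.053, and Cd8b1 to 0.012, 0.098 and 0.010. Leaving out a library gave -0.25 to 0.27 for Cd3d, -0.20 to 0.16 for Cd3g, -0.44 to 0.19 for Cd4, -0.21 to 0.24 for Cd8b1, -0.12 to 0.67 for Ctla4 and -0.24 to 0.052 for Il2rb. The cause was not tested. The CD3 sum over Ptprc stayed negative, at -0.57 to -0.21 when a library was left out, and the other 5 ratios kept their sign in every alternative run.

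With 3 libraries a group and 59 to 139 reads, Ncr1 was the gene with the least depth, and its interval covers changes of -0.30 to 0.79 on the log2 scale.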
